A study of Mus musculus with 20 samples.

Results

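Hic1 (hypermethylated in cancer 1) encodes a zinc-finger transcriptional repressor that in human tumours is often silenced together with methylation of its CpG-rich promoter region. DNA methylation is the addition of a methyl group to cytosine, mostly where a guanine follows, and dense methylation at a start site usually goes with low transcription, whereas methylation inside a gene can be found in genes that are active. The locus was taken as the intervals of the deposited table that overlap a fixed window on the mouse mm9 assembly holding Hic1 and its flanks, and 13 of the 50782 intervals met this rule. They run from the lowest end, chr11:74978428, to the highest, chr11:74986887. The locus was chosen by its measured reads in P21 neurons against P0 neurons (postnatal day 21 and postnatal day 0), where earlier results of these data showed a gain. That comparison, and those of neurons with non-neurons at either age, which use some of the same neuronal libraries, are therefore described here without a test. A test is given for the change with age in non-neurons.

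The groups were neurons at P21, neurons at P0, non-neurons at P21 and non-neurons at P0, with 5 libraries each, all from the hypothalamus of male C57BL/6 mice with no treatment or engineered allele given in the labels. Nuclei were sorted by staining for NeuN, a nuclear protein of neurons, so that the non-neurons are all nuclei without it, glia among them, and each library pooled 2 hypothalami of one age. The table holds DNA fragments and no transcripts, so the purity of the sort was not checked against marker genes. Libraries held 5663740 to 9998110 reads.

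In the assay, methylation-specific amplification, SmaI first cuts CCCGGG sites that are unmethylated and XmaI then cuts the methylated ones. Adaptors join the XmaI ends, so that amplification needs a methylated site on either side of the interval. The count of an interval, given here as CPM on the TMM-scaled library size, is a relative measure and not a percent of methylated molecules. It also depends on interval length and amplification, so that levels are compared between groups within an interval and not as methylation between intervals. In a pool of nuclei, a larger share of nuclei with both sites methylated and more efficient amplification cannot be told apart.

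The sequences around the 2 annotated start sites of Hic1 show where these cut sites lie in the gene. They come from RefSeq on another build, GRCm38.p6, each from 250 bases before a start to 50 after it, on the minus strand, at chr11:75168103-75168402 for the downstream start and chr11:75170206-75170505 for the upstream start. They are printed because the CCCGGG sites in them, in capitals, anchor the intervals on the gene.
downstream start: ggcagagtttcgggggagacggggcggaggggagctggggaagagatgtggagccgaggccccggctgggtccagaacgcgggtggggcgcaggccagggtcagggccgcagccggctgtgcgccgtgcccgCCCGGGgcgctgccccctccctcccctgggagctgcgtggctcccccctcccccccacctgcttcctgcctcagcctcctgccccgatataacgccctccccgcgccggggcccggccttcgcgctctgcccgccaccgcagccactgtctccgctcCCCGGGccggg
upstream start: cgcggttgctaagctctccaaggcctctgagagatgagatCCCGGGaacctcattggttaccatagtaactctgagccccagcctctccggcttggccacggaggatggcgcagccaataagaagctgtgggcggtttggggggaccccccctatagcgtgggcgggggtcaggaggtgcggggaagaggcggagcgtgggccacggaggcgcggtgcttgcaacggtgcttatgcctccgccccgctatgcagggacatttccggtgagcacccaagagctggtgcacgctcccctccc
The motif CCCGGG is its own reverse complement, so that both strands are searched at once, and it occurred in 13.5% of the 32851 promoter windows of that length. A single window with 2 or more sites was less common, at 2.53%. The downstream window held 29 CpG dinucleotides and the upstream window 20, against a median of 7 over all windows.

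The window at the downstream start held 2 sites, the first 113 bases before the start and the second 44 bases after it, 157 bp apart. The site of the other window lay 205 bases before the upstream start, 2195 bp from the nearer of those sites. Among the 84525 interval ends of the mm9 table, 3 ends with the spacings 157 and 2195 bp in this order occurred at 1 place, chr11:74981610, 74981767 and 74983962, inside the chosen region. No place had them in reversed order. By this match of spacings, which converts no coordinates, the interval chr11:74981610-74981767 spans the downstream start. Hic1 is read towards lower coordinates, so that intervals below it lie on the transcribed side of both starts. Exons and introns were not assigned, since an mm9 annotation was not used here.

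Numbered by position, intervals 1 to 6 lay on the transcribed side, within 3339 bp of the matched site at 74981767. They were chr11:74978428-74978724 (296 bp), chr11:74978724-74978836 (112 bp), chr11:74978836-74979938 (1102 bp), chr11:74980026-74980413 (387 bp), chr11:74980413-74980722 (309 bp) and chr11:74980722-74981570 (848 bp). On GRCm38 the annotated Hic1 gene runs 6888 bp from the same site in that direction, and the end of the neighbouring gene Smg6, whose product takes part in nonsense-mediated RNA decay, is 3817 bp away. Intervals 7 to 13 ran from the downstream start to 5120 bp beyond the matched site, past the upstream start. On GRCm38 the microRNA genes Mir212 and Mir132 lie 5123 and 5417 bp from that site in the same direction. Of the 12 neighbouring pairs, 9 share an end and so a cut site, and the other 3 are 40 to 88 bp apart. Neighbouring intervals are thus not independent measurements.

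In every group most of the signal of the locus lay on the transcribed side of the downstream start. In P21 neurons intervals 1 to 6 averaged 2.65 to 48.2 CPM, and intervals 7 to 13 at most 0.053 CPM. In P21 non-neurons the values were 0.35 to 5.20 CPM and at most 0.098 CPM. At P0 intervals 1 to 6 summed to 8.04 CPM in neurons and 9.75 CPM in non-neurons. The ranges of single intervals overlapped at P0. In P0 neurons interval 6 averaged 0.23 CPM, against 0.37 CPM in interval 11. In P0 non-neurons interval 5 averaged 0.31 CPM, against 0.37 CPM in interval 13. These low values rest on few reads and on intervals of unlike length, so no contrast is drawn from them. Intervals 1 to 6 all held enough reads to be tested, though intervals 2 and 5 did so through P21 neurons alone. Intervals 7 to 13 did not hold enough. These are 53.8% of the locus, against 47.5% of all intervals that were too low to test. Interval 7, across the downstream start, had 1 read in all 20 libraries together, and interval 8 (chr11:74981767-74982303) had 8. Intervals 9 (chr11:74982303-74982403) and 10 (chr11:74982462-74982525) had 0 reads in every library, which allows up to 0.064 CPM in P21 neurons, the deepest group, by 3 counts over the group. Intervals 11 to 13 had 11, 2 and 14 reads. Such limits cover counting error alone, since reads without molecular identifiers are not independent molecules.

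**Figure D1:**
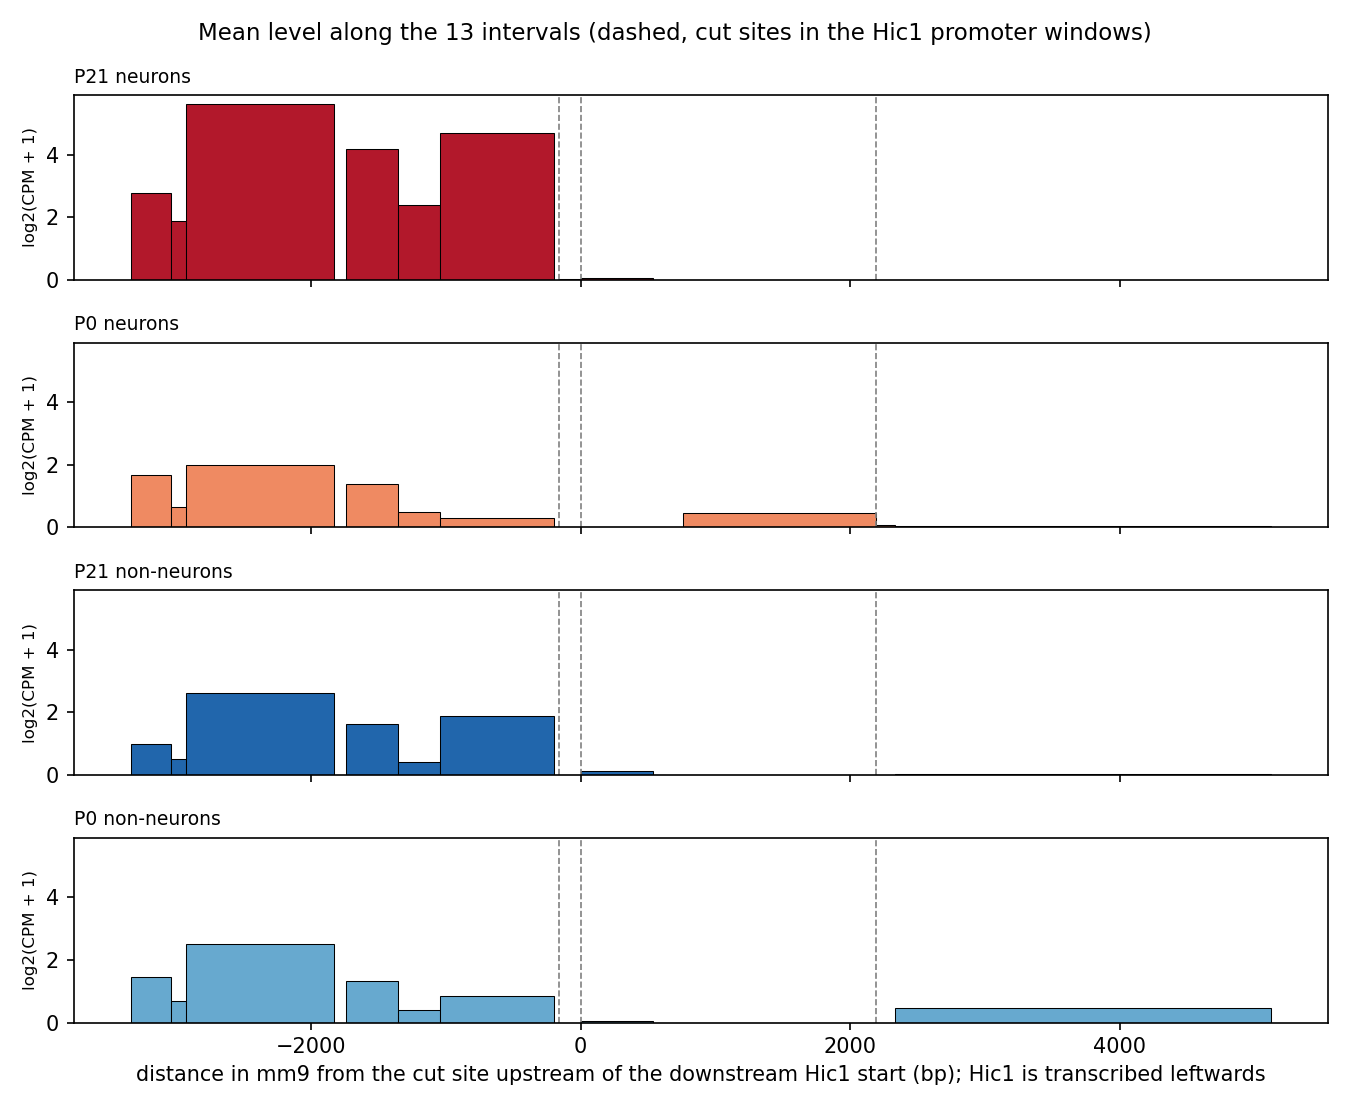
Mean level of the 13 intervals in the 4 groups, as log2(CPM + 1) against the distance in bp from the matched cut site, with each bar as wide as its interval (n = 5 libraries per group). The tall bars of P21 neurons all stand on the transcribed side of the downstream start, and the bars around both starts are low, the tallest being interval 11 in P0 neurons and interval 13 in P0 non-neurons. Dashed lines mark the 3 matched cut sites.

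Over intervals 1 to 6 together, the summed level was 103.1, 91.6, 113.5, 101.2 and 104.4 CPM in the 5 libraries of P21 neurons, against 10.03, 6.00, 10.4, 5.15 and 8.64 CPM in P0 neurons. Non-neurons had 11.4, 12.6, 12.2, 9.73 and 12.7 CPM at P21, against 12.4, 10.1, 10.8, 6.17 and 9.36 CPM at P0. All libraries of P21 neurons were therefore far above the other 15, whose 3 groups overlapped. From high to low, the means were 102.8 ± 7.83 in P21 neurons, 11.7 ± 1.23 in P21 non-neurons, 9.75 ± 2.29 in P0 non-neurons and 8.04 ± 2.36 CPM in P0 neurons (SD, n = 5 each), and the last 3 do not stand apart from their neighbours in this order beyond their spread.

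Interval 6, the one next to the downstream start, showed the steepest neuronal gain of the locus. It had 26.0, 19.4, 29.4, 23.3 and 26.4 CPM in P21 neurons, against 0.17, 0.45, 0.35, 0 and 0.15 CPM in P0 neurons. These stand for 205 to 287 reads per library at P21 and 0 to 3 at P0. The mean was 24.9 ± 3.74 CPM in P21 neurons, against 0.23 ± 0.18 CPM in P0 neurons (SD, n = 5 each), and the fitted log2 fold change was 6.66 ± 0.34 (SE), 5th from the top among 26679 intervals.

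Interval 3, the longest of the 6, carried the most reads. It had 51.8, 42.7, 52.6, 43.0 and 50.7 CPM in P21 neurons, against 3.63, 3.00, 3.69, 1.89 and 2.88 CPM in P0 neurons, a log2 fold change of 3.99 ± 0.18 (SE). Interval 4 had 15.5, 14.3, 19.3, 20.9 and 15.3 CPM in P21 neurons, against 2.77, 0.75, 1.76, 1.72 and 1.21 CPM in P0 neurons, a log2 fold change of 3.38 ± 0.27 (SE). In both intervals no P0 library came near the P21 libraries. Interval 5, which lies between intervals 4 and 6 and shares a site with each, had 3.93, 3.26, 4.81, 4.95 and 4.18 CPM in P21 neurons, against 0.86, 0, 0.35, 0.51 and 0.30 CPM in P0 neurons (log2 fold change 3.36 ± 0.44, SE).

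Both intervals farthest into the transcribed side gained less. Interval 2, with a length of 112 bp, had 2.28, 4.49, 1.95, 2.64 and 1.92 CPM in P21 neurons, against 0, 0.75, 1.06, 0.34 and 0.76 CPM in P0 neurons (log2 fold change 2.16 ± 0.44, SE). Interval 1 had 3.67, 7.48, 5.43, 6.48 and 5.88 CPM in P21 neurons, against 2.59, 1.05, 3.17, 0.69 and 3.34 CPM in P0 neurons (log2 fold change 1.42 ± 0.31, SE). Here the groups were closer, with the lowest P21 library at 3.67 and the highest P0 library at 3.34 CPM. Groups were separated in 6 of 6 intervals. Of all tested intervals 23% were separated with P21 neurons higher, and 31% had an adjusted p under 0.05 in that direction. Nothing is read from these counts, since this comparison chose the locus.

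**Figure D2:**
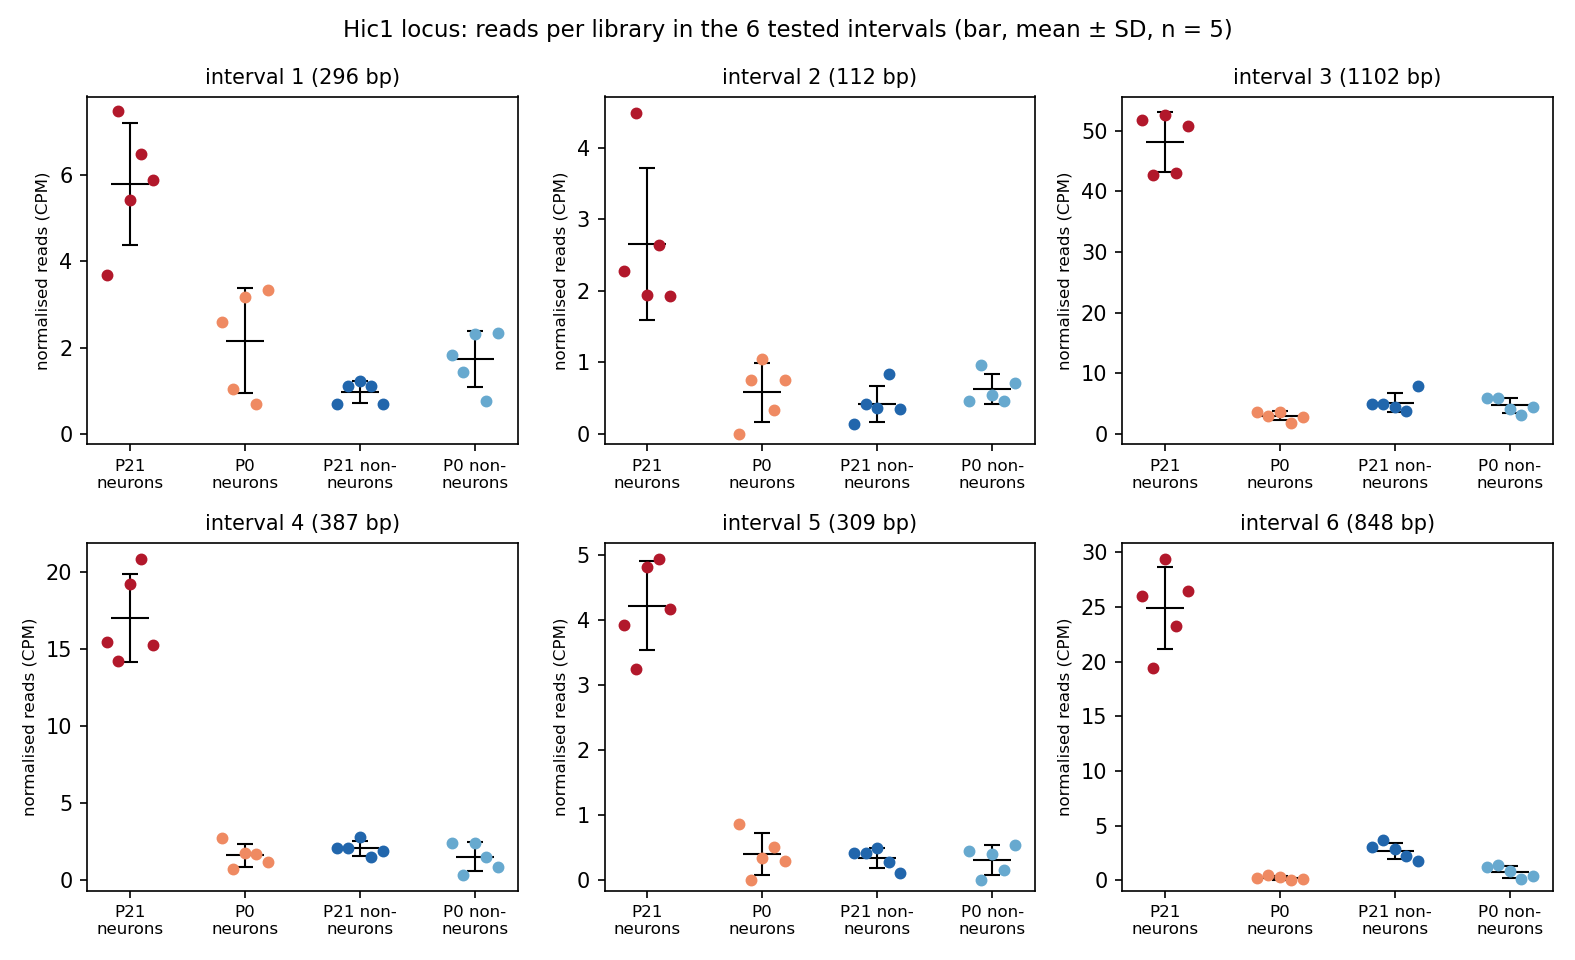
Normalised reads (CPM) of intervals 1 to 6 in each library, by group, with the mean and SD (n = 5); each panel has its own axis. P21 neurons sit above every library of the other groups in all 6 panels, least clearly in interval 1.

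**Figure D3:**
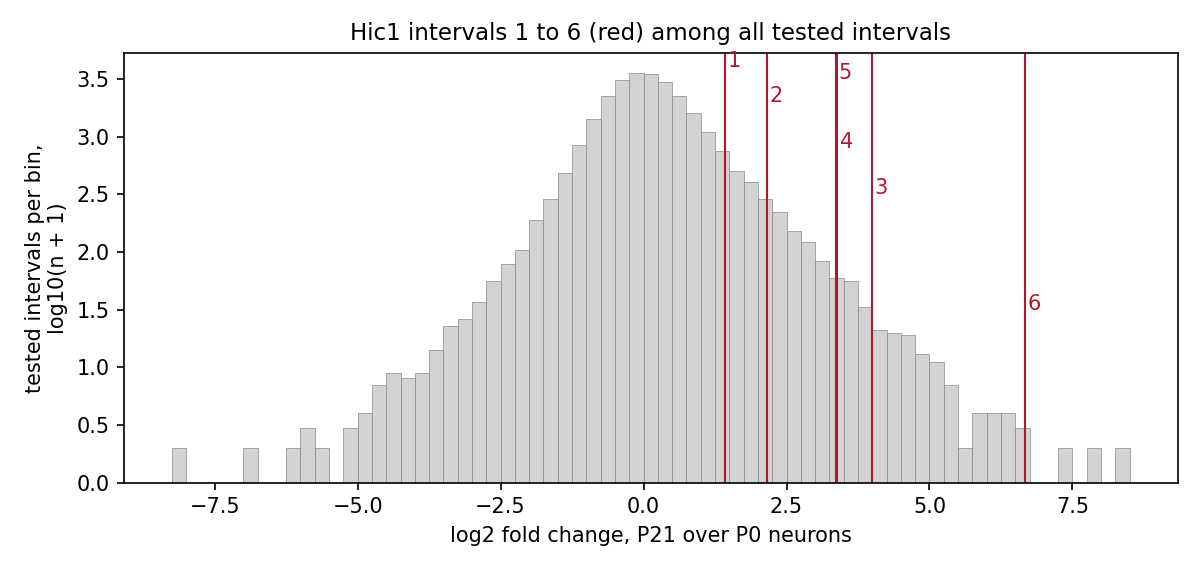
Log2 fold change of P21 over P0 neurons for all 26679 tested intervals (grey, bins of log2 fold change, number per bin as log10(n + 1)), with intervals 1 to 6 of the Hic1 locus as red lines. The 6 lines run from 1.42 for interval 1 to 6.66 for interval 6, whereas the median of all intervals is 0.06.

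The change with age in non-neurons compares libraries that had no part in the choice of the locus, although the neuronal libraries entered the fit through the filter on low counts and the estimate of the spread. A single interval, interval 6, rose. It had 3.07, 3.65, 2.84, 2.22 and 1.76 CPM in P21 non-neurons, against 1.22, 1.44, 0.82, 0.15 and 0.36 CPM in P0 non-neurons. The 2 groups did not overlap, and the difference passed the test (log2 fold change 1.72 ± 0.34, SE; edgeR quasi-likelihood test, Benjamini-Hochberg adjusted p = 5.27e-05 over all 26679 tested intervals). The count of 1 riser and 0 fallers of 6 compares with 28.5% of all tested intervals called higher and 25.8% called lower with age in non-neurons, and 17.5% had separated groups with P21 higher. Intervals 2 and 5 are among the 6 through P21 neurons alone. They had 16 and 13 reads in P21 non-neurons and 20 and 10 in P0 non-neurons, too few to show no change. No result about the locus is read from this count. In a fit of the non-neuronal libraries alone, intervals 3, 4 and 6 could be tested, and interval 6 was under 0.05 (edgeR adjusted p = 0.000532). It met the filter there through the P21 libraries alone. The filter thus favoured a higher P21 level, and this p is not taken as support.

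The other 5 intervals did not pass. Interval 3 averaged 5.20 ± 1.57 CPM in P21 non-neurons, against 4.74 ± 1.22 CPM in P0 non-neurons (SD, n = 5 each). The log2 difference was 0.15 ± 0.20 (SE, edgeR adjusted p = 0.547). Interval 4 averaged 2.09 ± 0.48 CPM at P21, against 1.53 ± 0.94 CPM at P0 (log2 difference 0.41 ± 0.33, SE; edgeR adjusted p = 0.298). Interval 5 averaged 0.35 ± 0.15 CPM at P21, against 0.31 ± 0.23 CPM at P0 (log2 difference 0.13 ± 0.64, SE; edgeR adjusted p = 0.876). Intervals 2 and 1 had lower means at P21. Interval 2 had 0.42 ± 0.25 CPM in P21 non-neurons, against 0.63 ± 0.21 CPM in P0 non-neurons (log2 difference -0.55 ± 0.56, SE; edgeR adjusted p = 0.42). Interval 1 had 0.97 ± 0.25 CPM in P21 non-neurons, against 1.74 ± 0.66 CPM in P0 non-neurons (log2 difference -0.83 ± 0.39, SE; edgeR adjusted p = 0.0714). It passed once the trend of log2 CPM on interval length was taken out (edgeR adjusted p = 0.0407) and without replicate 4 of P0 non-neurons (adjusted p = 0.0298).

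At P21 the level in neurons was 5.90 to 11.8 times that in non-neurons over the 6 intervals in the fit. The P21 neuron libraries are those whose high level chose the locus, so that these values are a description. Intervals 2 and 5 moreover passed the filter on low counts through P21 neurons alone. In interval 3 P21 neurons averaged 48.2 ± 4.93 CPM, against 5.20 ± 1.57 CPM in P21 non-neurons (SD, n = 5 each), and the log2 difference was 3.20 ± 0.16 (SE). In interval 6 P21 neurons had 24.9 ± 3.74 CPM, against 2.71 ± 0.74 CPM in P21 non-neurons (log2 difference 3.20 ± 0.22, SE). The 6 values of P21 neurons against P21 non-neurons were thus close to one another, in contrast to the age change in neurons, where the fold ran from 2.68 to 101.3. Interval 5 had the highest fold, with 4.22 ± 0.69 CPM in P21 neurons, against 0.35 ± 0.15 CPM in P21 non-neurons (log2 difference 3.56 ± 0.43, SE).

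Of the remaining intervals at P21, interval 4 had 17.0 ± 2.88 CPM in neurons, against 2.09 ± 0.48 CPM in non-neurons (log2 difference 3.01 ± 0.25, SE). Interval 2 had 2.65 ± 1.07 CPM in neurons, against 0.42 ± 0.25 CPM in non-neurons (log2 difference 2.62 ± 0.44, SE). Interval 1 had 5.79 ± 1.41 CPM in neurons, against 0.97 ± 0.25 CPM in non-neurons (log2 difference 2.56 ± 0.34, SE). In each of the 6 intervals the lowest neuronal library was above the highest non-neuronal one. Over all tested intervals, 20.8% were called higher in P21 neurons and 16.5% had separated groups in that direction, and nothing is read from the 6 of 6 of the locus against these shares. The median log2 fold change of the 6 was 3.10, against -0.06 over all tested intervals.

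At P0 neurons and non-neurons differed in no common direction over the 6 intervals. Their log2 fold changes, neurons over non-neurons, ran from -1.75 to 0.33 with a median of -0.02, against 0.01 over all tested intervals. The P0 neuron libraries also belong to the comparison that chose the locus, where a low P0 level counts towards the choice, so that no test is given. In intervals 1, 2, 4 and 5 the differences were 0.31 ± 0.36, -0.09 ± 0.56, 0.04 ± 0.36 and 0.33 ± 0.65 on the log2 scale (SE). With errors of this size, equal levels are not shown. Interval 3 had 3.02 ± 0.73 CPM in P0 neurons, against 4.74 ± 1.22 CPM in P0 non-neurons (log2 difference -0.65 ± 0.22, SE).

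Interval 6 had the largest difference of the 6 at P0. Its values were 0.17, 0.45, 0.35, 0 and 0.15 CPM in P0 neurons, from 7 reads in all, and 1.22, 1.44, 0.82, 0.15 and 0.36 CPM in P0 non-neurons, from 26 reads. The groups overlapped, at a log2 fold change of -1.75 ± 0.58 (SE). With only the P0 libraries in the fit, the interval had too few reads to pass the filter. Of all tested intervals 2.86% were called lower in P0 neurons and 6.92% higher, and nothing is read from the locus against these shares.

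**Figure D4:**
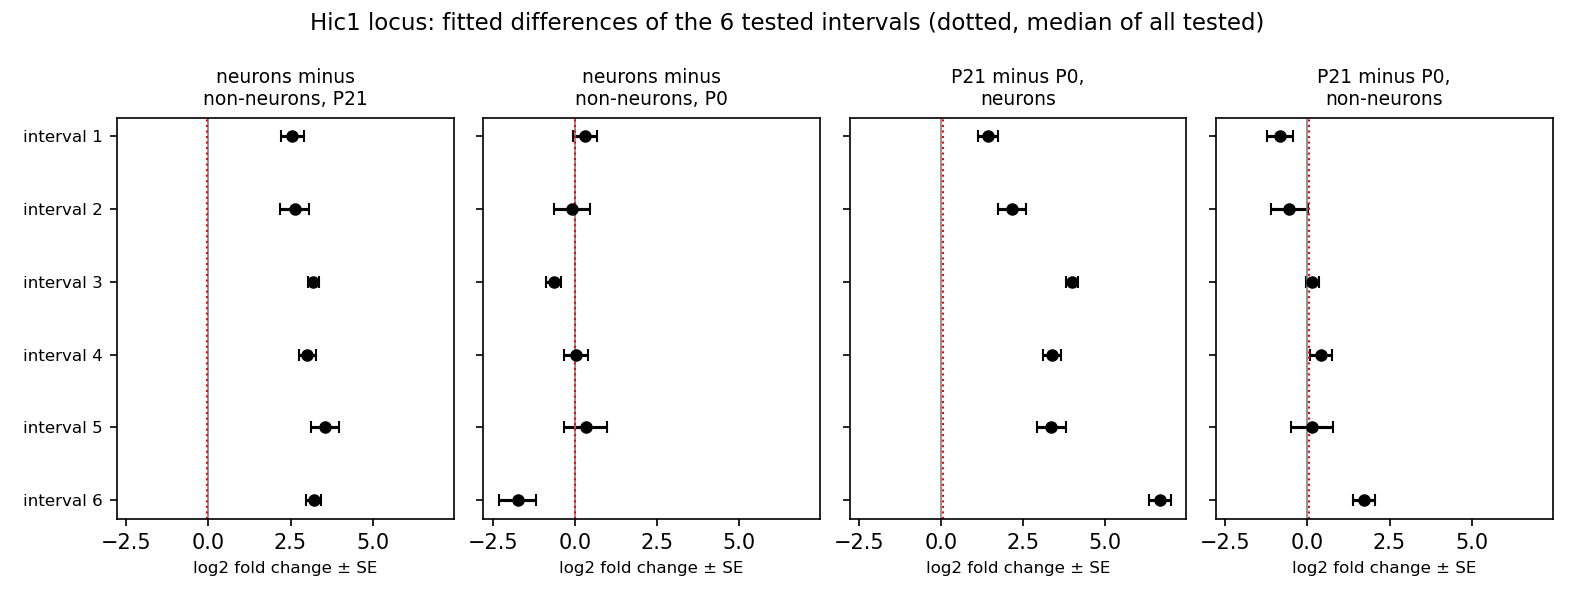
Fitted log2 fold changes with their SE for intervals 1 to 6 in 4 comparisons (points), beside 0 (grey line) and the median of all tested intervals (dotted line). At P21 the 6 neuronal excesses lie close together, the age change in neurons is widest at interval 6, and in non-neurons interval 6 alone rose.

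The make-up of the signal differed with age. Interval 6 made up 24.2% of the summed mean level of the 6 intervals in P21 neurons and 2.80% in P0 neurons. In non-neurons it made up 23.1% at P21 and 8.20% at P0. Interval 1, at the other end, made up 5.63% in P21 neurons and 26.9% in P0 neurons, against 8.30% in P21 non-neurons and 17.8% in P0 non-neurons. Interval 3 was the largest part in every group, with 46.9% in P21 neurons, 37.5% in P0 neurons, 44.3% in P21 non-neurons and 48.6% in P0 non-neurons. P21 non-neurons thus had a make-up near that of P21 neurons at a lower level, the mean of each interval being 8.19% to 16.8% of the P21 neuronal one. These shares are a description, with no test.

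A pair of low intervals, across the upstream start and beyond it, had reads in P0 libraries almost alone. Interval 11 (chr11:74982525-74983962, 1437 bp) ends at the site 205 bases before that start, and by the match of spacings it spans the start. It had 4, 1, 2, 2 and 2 reads in the 5 libraries of P0 neurons and 0 reads in each of the other 15 libraries. Its pooled level was 0.36 CPM in P0 neurons (exact 95% Poisson interval 0.18 to 0.64). With 3 counts over the group as the floor of a group at 0, this level was 3.86 times the floor of P0 non-neurons and 5.64 times that of P21 neurons. The counting error of the P0 neuron level is left out of these ratios, so that they are not lower bounds. It ran against the direction of intervals 1 to 6, with reads in neurons at P0 and 0 at P21.

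Interval 13 (chr11:74984101-74986887, 2786 bp) had 0, 0, 0, 1 and 0 reads in P0 neurons, against 4, 0, 2, 4 and 2 in P0 non-neurons. At P21 it had 0 reads in neurons and 1 in non-neurons. The level in P0 neurons was 0.088 of that in P0 non-neurons (exact 95% binomial interval 0.0021 to 0.59), and that in P21 non-neurons was 0.07 of it (0.0016 to 0.48). Without the filter on low counts, the change with age in non-neurons passed the test (edgeR adjusted p = 0.0177). Interval 12 (chr11:74983962-74984101, 139 bp), between them, had 2 reads, both in P0 neurons.

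The intervals outside the region with the profile most like that of the Hic1 locus were sought by the Pearson correlation of log2 CPM with the log2 summed level of intervals 1 to 6 over the 20 libraries. The libraries fall into 1 high and 3 low groups, so that any interval high in P21 neurons scores well, and the correlations are a description. The closest was chr15:74043673-74044660 (r = 0.979), with 71.2 ± 5.51 CPM in P21 neurons, 14.8 ± 2.40 in P0 neurons, 18.1 ± 3.17 in P21 non-neurons and 15.5 ± 2.54 in P0 non-neurons (SD, n = 5 each). Next came chr15:99431518-99432342 and chr2:160416383-160417356 (r = 0.979 and 0.978). The last 2, chr11:84450900-84452014 (r = 0.975) and chr15:101833492-101834550 (r = 0.974), started lower: they had 40.5 ± 1.97 and 42.5 ± 3.37 CPM in P21 neurons, against 1.34 ± 0.62 and 0.49 ± 0.27 CPM in P0 neurons (SD, n = 5 each). All 5 are 824 to 1114 bp long.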

How the data were processed

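The authors deposited whole-number read counts per SmaI/XmaI interval, 1 column per library, read as counts from the values. FastQC 0.10.1, cutadapt, Bowtie 0.12.9 and mm9 are named, per the submitters' processing notes; the counting method and the handling of multiply mapped reads are not stated there. Columns were assigned by age, cell type letter and replicate number (G read as glia, the word of the series title for non-neurons), and 0 columns belonged to other samples.

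The fit covered the whole table: filterByExpr of edgeR 4.0.16 (minimum count 10, total 15; a CPM above 1.42 in at least 5 libraries), TMM scaling, 1 mean per group over 20 libraries, glmQLFit (robust) and glmQLFTest in R 4.3.3, with Benjamini-Hochberg adjustment over 26679 intervals and calls at 0.05. SEs are the log2 fold change over the square root of F, and can be too small where a group has few reads. Totals ran from 5663740 to 9998110 reads, with chi-square per degree of freedom of 2.05 to 9.60 over 40 replicate pairs. The series' design text calls the 5 samples per age independent. Correlations used a prior count of 2. The functions were tested on simulated counts. Every interval of the region was to be described, whatever its level, with the 5 most similar intervals and the 2 nearest on each side. p-values are printed for age in non-neurons alone. The members, lists and tests were chosen with earlier results of these data known. Alternatives were 3 other scalings, no filter, a filter of 20 reads in 5 libraries, DESeq2 1.42.0, limma-voom 3.58.1, fits of the compared groups alone, a replicate block, removal of each library's length trend (lowess, span 0.2) and leaving out each library. Plots were drawn with matplotlib 3.10.9.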

Additional observations from a re-analysis of the deposited data

Results flagged for a closer look

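In interval 2 (chr11:74978724-74978836), replicate 2 of P21 neurons, at 4.49 CPM, lay far from the other 4 libraries of its group, with a gap to the nearest of 0.721 of the group's range. It was the 1 such library in 24 groups of values tested, and chance flags about 1 in 20. Without that library, the log2 fold change of interval 2 in P21 neurons over P21 non-neurons was 2.34.

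The change with age was larger in neurons than in non-neurons in all 6 tested intervals. The difference of the age changes, neurons minus non-neurons, was 2.25 ± 0.50, 2.71 ± 0.73, 3.84 ± 0.28, 2.97 ± 0.45, 3.23 ± 0.85 and 4.95 ± 0.61 on the log2 scale (SE) for intervals 1 to 6. The neuronal gain that chose the locus is part of this difference, so no p is given for it.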

How the results depend on the processing

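For age in non-neurons, the 1 comparison of the report with a test, 1 interval was called with TMM. There were 1 riser and 1 faller (interval 13) with no filter, and 2 calls with the length trend removed. Calls were common in this comparison: with TMM, 28.5% of all tested intervals were called higher and 25.8% lower. No result about the locus is therefore read from the number of calls under any setting. For the comparisons that use neuronal libraries, the numbers past the threshold describe the settings and support nothing. Neurons over non-neurons at P0 had 1 such interval with TMM. The number was 2 with upper-quartile factors, library totals alone, the filter of 20 reads, DESeq2, the length trend removed and the replicate block, 2 with no filter, of which 1 was higher (interval 11) and 1 lower, and 0 with limma-voom and with only the compared groups, where 3 of the 6 were tested. Leaving out 1 library at a time gave 1 to 2 calls for age in non-neurons and 0 to 2 intervals past the threshold for cell type at P0. Signs turned in the following intervals, none of them past the threshold. At P0 interval 4 had -0.051 with upper-quartile factors, -0.010 with library totals alone and -0.021 with the length trend removed, and interval 2 had 0.12 with the length trend removed; the cause was not tested. Without 1 library, the log2 fold change at P0 ranged from -0.37 to 0.21 in interval 2, -0.23 to 0.28 in interval 4 and -0.12 to 0.67 in interval 5. For age in non-neurons it ranged from -0.062 to 0.24 in interval 3 and -0.17 to 0.36 in interval 5.

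Same-numbered libraries of the 2 cell types correlated in their deviations at r = 0.0060 to 0.317, not all above 0.1. Not every library correlated best with its own number, so that the numbers were not taken as pairs. Such correlations cannot show that the libraries were unpaired, and the SEs given for neurons against non-neurons take no pairing into account. With the replicate block, age in non-neurons had 1 call.

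Intervals with under 1 CPM rest on few reads per library, so that differences in P0 neurons, with 7 to 92 reads per tested interval over 5 libraries, are measured less firmly than those in P21 neurons, with 129 to 2248.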

Other observations

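The table held few intervals near the locus. The nearest below it, chr11:74709997-74710165, is 268263 bp away and had 0 CPM in both neuronal groups and in P21 non-neurons. The next, chr11:74672186-74672375, had 2.04 ± 0.87 CPM in P21 neurons, 3.35 ± 0.97 in P0 neurons, 2.74 ± 0.57 in P21 non-neurons and 3.23 ± 0.67 in P0 non-neurons (SD, n = 5 each), without the high level of P21 neurons seen in the Hic1 intervals. The nearest above, chr11:75006454-75007078, is 19567 bp away and had 0.43 ± 0.41 CPM in P21 neurons, 0.56 ± 0.30 in P0 neurons, 0.06 ± 0.12 in P21 non-neurons and 0.68 ± 0.67 in P0 non-neurons, too low to be tested. The one beyond it, chr11:75007078-75007535, had 0.09 ± 0.09 CPM in P21 neurons, 0.34 ± 0.42 in P0 neurons, 0 in P21 non-neurons and 0.25 ± 0.24 in P0 non-neurons.

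The place of the locus among all tested intervals differed with age in neurons. In P21 neurons, 78.9% of tested intervals had a lower mean than interval 3 and 67.5% a lower mean than interval 6. In P0 neurons the shares were 27.8% and 0.27%.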
